A study of Mus musculus with 24 samples.

Results

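The comparison described here sets the livers of FXR-knockout mice against those of wild-type mice when both had received vehicle only. It covers 12 of the study's 24 arrays, 6 per genotype, and the arrays were chosen by their sample titles. Each array held liver RNA of 1 mouse, so the spread within a group is the spread between mice. All animals were male C57BL/6 mice on chow, 9 to 12 weeks old. The knockout animals were FXR-/- and the controls were labelled wild type. Both groups were gavaged every day for 7 days with 1% methyl cellulose. The other 12 arrays came from mice of the same genotypes that were gavaged with obeticholic acid (OCA, a semi-synthetic FXR agonist) at 10 mg/kg/day for the same time, and they served as a separate set in which the genotype difference could be measured again. Which part of the FXR gene is missing in these mice, and whether the wild-type animals were littermates of the knockouts, was not stated in the labels or files. RNA was measured on whole-transcript arrays, and 18820 genes with 1 probe set each entered the comparison.

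FXR, encoded by Nr1h4, is a nuclear receptor that binds bile acids and acts on DNA together with a retinoid X receptor. In hepatocytes it is known to induce the repressor SHP and the export pumps of the bile canaliculus, and to restrain the synthesis of new bile acids from cholesterol. In the ileum it induces FGF15, a hormone that reaches the liver through the portal blood and represses the same pathway. Adult liver also differs between the sexes: the pulsatile growth hormone of males acts through STAT5b to keep male-biased genes on and female-biased genes low. CAR and PXR, receptors for drugs and steroids, drive cytochrome P450 genes of the Cyp2b, Cyp2c and Cyp3a families.

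The promoters of 5 genes on which the comparison turns are shown because they hold the direct FXR targets Nr0b2 and Slc51b, the uptake carrier Slco1a1 that lay at the lower end of the list, and a pair of neighbouring cytochrome genes at its upper end. Each window runs 5′ to 3′ along the gene from 250 bases before to 50 bases after the RefSeq start (GRCm38.p6). Capitals mark matches to TTCNNNGAA, the letters of a STAT5-type site, and to AGGTCA, a nuclear receptor core motif. Both strands were searched, so a reverse match of AGGTCA reads TGACCT.
Nr0b2 (chr4:133553126-133553425, + strand): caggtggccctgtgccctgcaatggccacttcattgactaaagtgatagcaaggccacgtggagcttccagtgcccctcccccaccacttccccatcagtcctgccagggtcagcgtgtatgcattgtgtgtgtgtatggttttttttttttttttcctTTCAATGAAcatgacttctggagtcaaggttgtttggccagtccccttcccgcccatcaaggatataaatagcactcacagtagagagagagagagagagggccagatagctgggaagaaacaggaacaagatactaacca
Slc51b (chr9:65422724-65423023, − strand): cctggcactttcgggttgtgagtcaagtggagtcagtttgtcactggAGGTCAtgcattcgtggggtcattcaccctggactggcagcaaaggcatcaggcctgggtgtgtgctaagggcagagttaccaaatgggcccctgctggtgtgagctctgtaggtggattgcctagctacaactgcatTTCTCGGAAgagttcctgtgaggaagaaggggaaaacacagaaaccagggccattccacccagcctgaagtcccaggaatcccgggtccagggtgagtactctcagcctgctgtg
Slco1a1 (chr6:141946913-141947212, − strand): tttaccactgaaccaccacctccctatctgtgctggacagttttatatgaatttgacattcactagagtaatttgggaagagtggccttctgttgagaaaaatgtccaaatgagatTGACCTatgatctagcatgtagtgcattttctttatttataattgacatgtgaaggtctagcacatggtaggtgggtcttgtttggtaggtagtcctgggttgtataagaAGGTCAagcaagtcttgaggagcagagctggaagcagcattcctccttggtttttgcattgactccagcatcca
Cyp2b9 (chr7:26173159-26173458, + strand): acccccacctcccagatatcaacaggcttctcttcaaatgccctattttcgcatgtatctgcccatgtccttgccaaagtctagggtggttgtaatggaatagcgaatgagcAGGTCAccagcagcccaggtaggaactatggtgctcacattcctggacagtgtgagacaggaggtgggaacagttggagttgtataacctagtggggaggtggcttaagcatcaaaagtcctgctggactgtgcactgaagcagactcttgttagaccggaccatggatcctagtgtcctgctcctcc
Cyp2b13 (chr7:26061245-26061544, + strand): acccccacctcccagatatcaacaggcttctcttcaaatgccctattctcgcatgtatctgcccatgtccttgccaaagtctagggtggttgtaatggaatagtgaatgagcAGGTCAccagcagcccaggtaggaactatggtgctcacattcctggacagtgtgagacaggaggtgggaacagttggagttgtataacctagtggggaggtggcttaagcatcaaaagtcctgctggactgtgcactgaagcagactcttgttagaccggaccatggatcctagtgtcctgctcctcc

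The Nr0b2 window held TTCNNNGAA 91 bases before the start, and the Slc51b window held it 65 bases before the start together with AGGTCA 203 bases before it. Slco1a1 had AGGTCA 24 bases before the start and, on the reverse strand, 134 bases before it. In Cyp2b9 and Cyp2b13 AGGTCA lay 138 bases before the start. The 2 Cyp2b windows differed at 2 of 300 positions, T48C and C104T, with the Cyp2b9 base first and positions counted from 1 at the 5′ end of the window. Among all 27025 promoters of the same length 8.5% held TTCNNNGAA and 16.0% held AGGTCA. Of the 25 named genes with the largest rise 20 had a promoter in the table, and 5.0% of these held TTCNNNGAA and 20.0% AGGTCA. Of the 25 with the largest fall 17 had a promoter, and both motifs stood in 11.8%. Another set was 12 genes fixed for naming, which include Nr0b2, Slc51b, Cyp2b9 and Cyp2b13. There 10 had a promoter, and 30.0% of these held TTCNNNGAA and 60.0% AGGTCA. These matches are descriptions of letters and do not show that a factor binds there.

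The genotypes separated in full on the first principal component of the 12 arrays, which held 55.4% of the variance. Wild-type arrays lay between −30.4 and −25.3 and knockout arrays between 26.4 and 30.1. Wild-type array 6 stood apart on the second component (14.7% of the variance), at −46.2 against −1.3 to 13.3 for the other 11 arrays. There 532 genes differed over 2-fold from the mean of the remaining wild-type arrays, whereas the same count was 2 to 65 in each of the other 11 arrays. The acute phase list read 0.99 log2 units and the Kupffer cell list 0.74 log2 units (medians over members) above the other wild-type arrays there. Where the call of a named gene changed without this array, this is therefore stated. Sizes of other changes include it unless stated. This holds, among others, for Il1r1, Itih3, Xbp1, Chac1, Pfkfb3, Mvd and Carmil1, whose signal in this array stood apart from the other wild-type arrays. Array names also carry a code number of unstated meaning: wild-type arrays 1 to 4 and knockout arrays 3 to 6 share number 7, while wild-type arrays 5 and 6 carry number 5 and knockout arrays 1 and 2 number 9. Array medians over all probe sets lay between 4.57 and 4.65 in the 24 arrays. Over the 18820 genes alone the medians were 5.14 to 5.23 in the wild-type and 5.32 to 5.38 in the knockout vehicle arrays, without overlap. The 12 vehicle arrays correlated at 0.9747 to 0.9966 across genes.

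**Figure D1:**
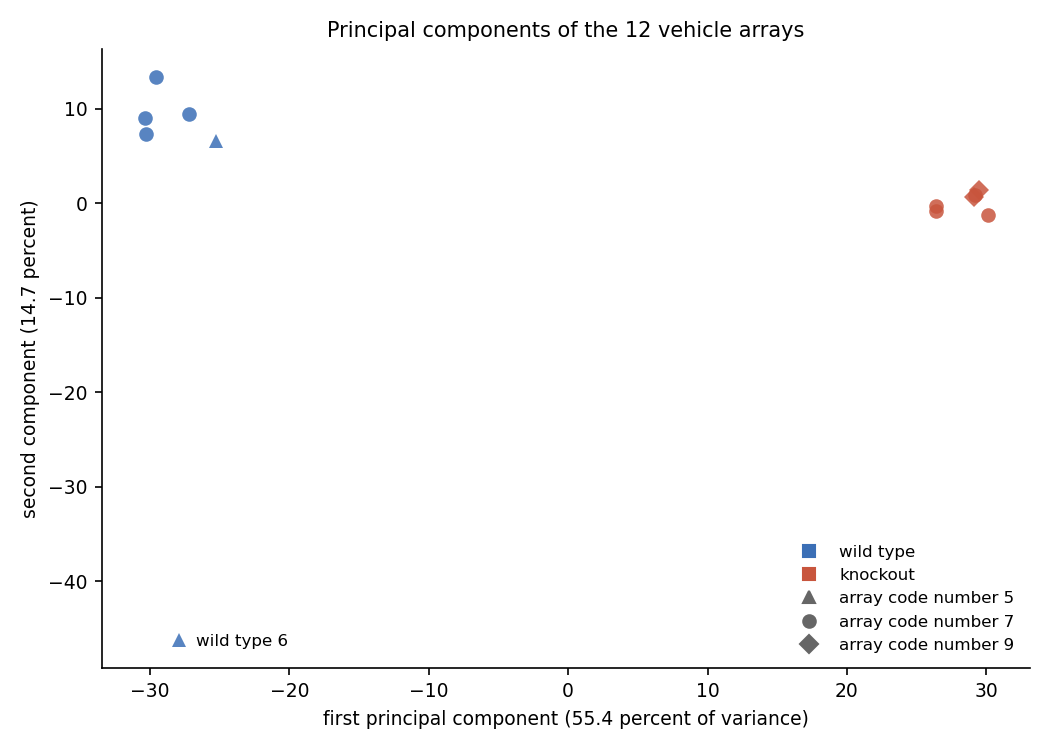
First (horizontal, 55.4% of variance) and second (vertical, 14.7%) principal component of the 12 vehicle arrays, coloured by genotype, with the marker shape giving the array code number. The 6 wild-type arrays sit between −30.4 and −25.3 on the horizontal axis, left of all 6 knockout arrays, and wild-type array 6 sits alone at −46.2 on the vertical axis.

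Of the 18820 genes 5174 (27.5%) were called at an adjusted p below 0.05 (limma, Benjamini-Hochberg over all genes), with 2903 (15.4%) higher and 2271 (12.1%) lower in the knockout livers. Most of these differences were small. In all 71.2% of the called genes differed by less than 1.5-fold, while 384 genes (2.04% of all) were over 2-fold higher and 170 (0.903%) over 2-fold lower. Over 8-fold, 24 genes rose and 12 fell. For 2837 genes (15.1%) the 6 knockout arrays did not overlap the 6 wild-type arrays, 1770 of them lying above and 1067 below. In 65 genes all wild-type arrays read below a signal of 20 (4.32 on the log2 scale) and all knockout arrays above it, and 38 of these were over 2-fold higher. The reverse was seen in 18 genes, of which 15 were over 2-fold lower. Both 2-fold counts go by the size of the change alone.

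The split into higher and lower calls depends on how arrays are put on a common scale. With each array shifted by a constant so that the median of the 18820 genes was equal, 10130 genes were called, an alternative chosen after the data were seen. Of these 1776 were higher and 8354 lower, because the median change moved from −0.03 to −0.20. Quantile normalization of the same genes also makes that median equal, but by reshaping the values of each array. It called 5389 genes, 2526 higher and 2863 lower, with a median change of −0.03. Below, the median gene set equal means the shift by a constant. Where this shift turned the direction of a list's median or the balance of its calls, the values are given beside the list. Over all genes 15.4% were called higher and 12.1% lower, and the counts of each list below stand beside these shares. The lists were written with earlier results of these data known. The sex-biased lists hold Elovl3, Hsd3b5, Cyp2b9 and Cyp2b13, which were given beforehand as markers of this genotype difference. The list counts are therefore descriptions, and enrichment was not tested. Without wild-type array 6, 2974 genes were higher and 2477 lower, and 551 of the 554 genes called over 2-fold were still called. Among the 8 arrays of code number 7 alone, 2623 genes were higher and 1910 lower, and 548 of the 554 were still called. With the code number as a block, each change comes from these same arrays by construction. Only the estimate of the spread differs, so the 2 settings are not separate checks. Where a gene's call is said to be lost or gained without an array, arrays were left out 1 at a time.

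**Figure D2:**
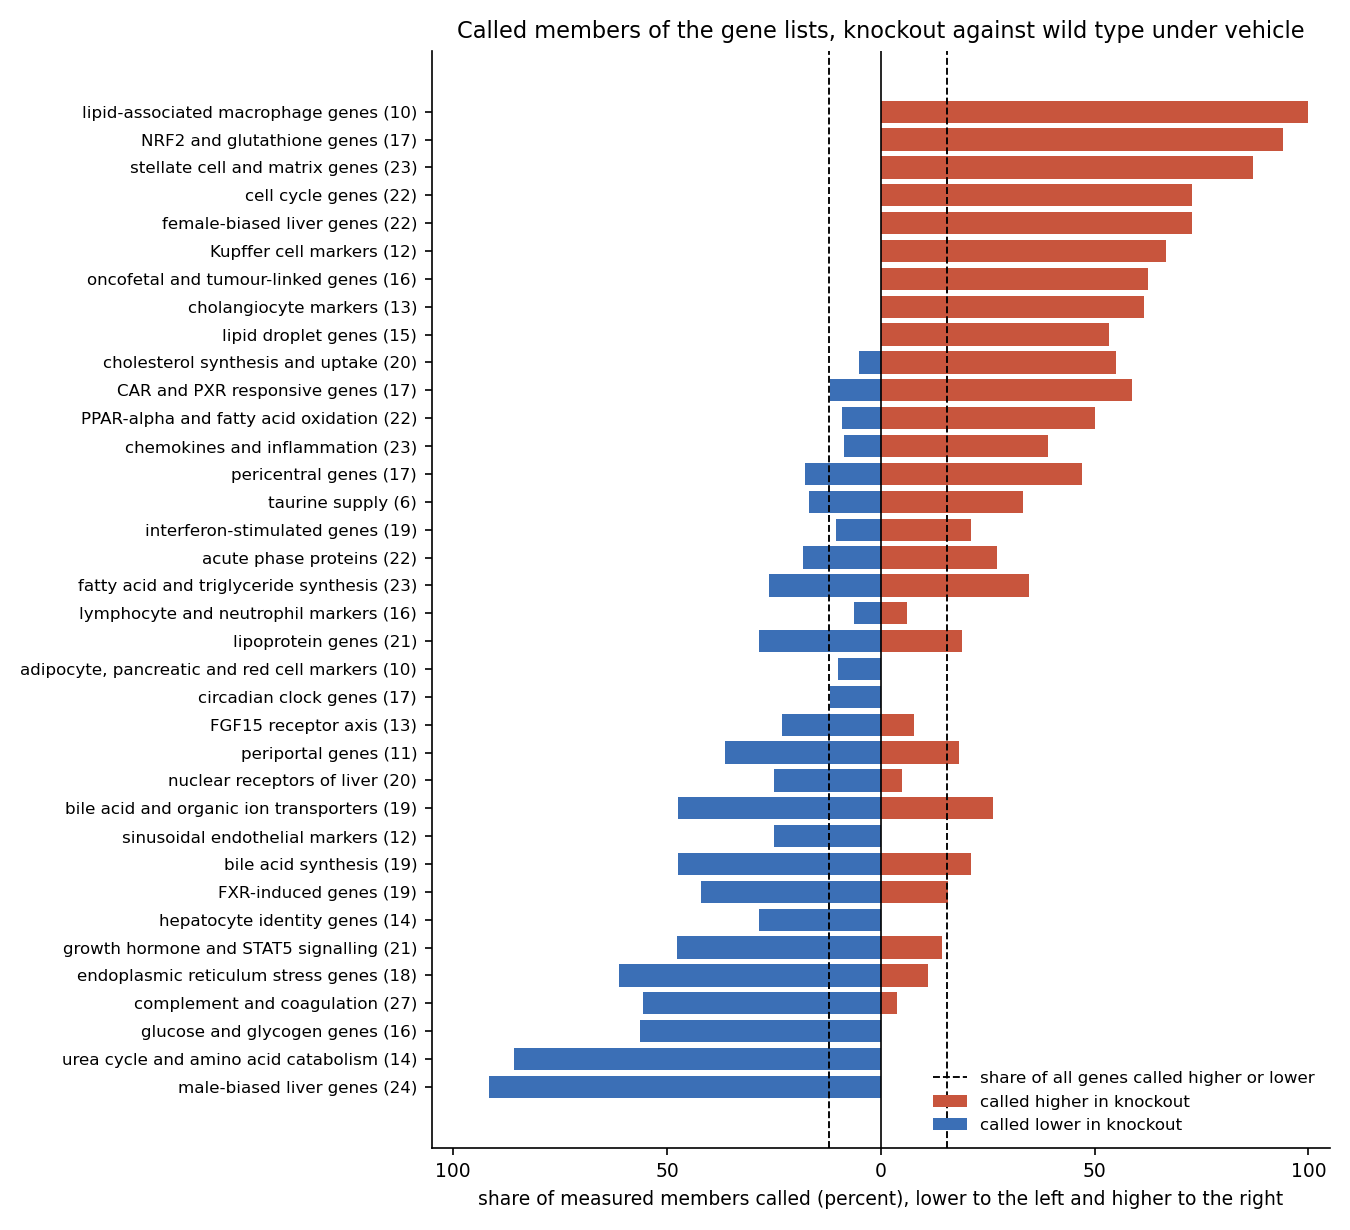
Share of the measured members of each of 36 gene lists (number of measured members in brackets) called higher (right) or lower (left) in knockout liver, in percent, with the 15.4% and 12.1% of all genes shown as dashed lines. Lipid-associated macrophage genes (10 of 10 higher) stand at the top and male-biased liver genes (22 of 24 lower) at the bottom.

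The gene that encodes FXR did not read low in the arrays labelled knockout. Nr1h4 read 9.96 to 10.30 (median 10.15) in the wild-type arrays and 9.88 to 10.13 (median 9.91) in the knockout arrays, and the groups overlapped. Its log2 change was −0.17 ± 0.07, adjusted p 0.0935. The sources do not place the probe set relative to the deleted part, so this reading does not check the labels. For Nr1h4 the change was called without wild-type array 5 (−0.20, adjusted p 0.0444).

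Targets that FXR is known to induce read low in part. Nr0b2, which encodes the repressor SHP, read 5.87 to 7.30 (median 6.56) in the wild-type arrays and 3.40 to 4.60 (median 4.03) in the knockout arrays. It fell by 2.62 ± 0.25 log2 units (6.16-fold, adjusted p 1.21e-08), and no knockout array reached the lowest wild-type array. Abcb11, the bile salt export pump of the canalicular membrane, read 10.87 to 11.70 (median 11.41) in the wild-type arrays and 9.47 to 10.06 (median 9.66) in the knockout arrays. It fell by 1.68 ± 0.12 log2 units (3.2-fold, adjusted p 3.79e-11) without overlap. Slc51b, the beta subunit of the basolateral bile acid exporter OST, read 4.42 to 4.96 (median 4.68) in the wild-type arrays and 3.11 to 3.92 (median 3.57) in the knockout arrays and fell by 1.11 ± 0.13 log2 units (2.16-fold, adjusted p 4.73e-07). The alpha subunit gene Slc51a stayed near the low end of the scale, where it read 3.06 to 3.46 (median 3.20) in the wild-type arrays and 2.67 to 3.25 (median 2.97) in the knockout arrays. Its groups overlapped, and it fell by 0.25 ± 0.09 log2 units (1.19-fold, adjusted p 0.0299). In the arrays of code number 7 alone Slc51a was not called (−0.19, adjusted p 0.244), and the call was lost without wild-type arrays 2, 4 or 5 or knockout arrays 2, 3 or 6 (adjusted p 0.0521 to 0.0938).

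Of the 19 measured FXR-induced genes 8 fell and 3 rose (median log2 change −0.15, against −0.03 over all genes), and with the median gene set equal 13 fell. Apoa5, an activator of lipoprotein lipase, fell by 0.81 ± 0.08 log2 units (1.75-fold, adjusted p 4.01e-08), and Slc22a7, an organic anion carrier of the sinusoidal membrane, fell by 3.59 ± 0.24 log2 units (12.1-fold, adjusted p 1.23e-11). Slc22a7 read 6.97 to 8.66 (median 8.41) in the wild-type arrays and 4.04 to 4.65 (median 4.59) in the knockout arrays. The 3 members that rose went against the list's name. Vldlr, the very low density lipoprotein receptor, rose by 2.62 ± 0.17 log2 units (6.13-fold, adjusted p 1.12e-11) and the carboxylesterase gene Ces2a rose by 0.90 ± 0.08 log2 units (1.87-fold, adjusted p 2.42e-09). The other was Sdc1, the proteoglycan syndecan 1 (0.57 ± 0.08, adjusted p 2.7e-06). Apoc2, a cofactor of lipoprotein lipase, did not pass (log2 change −0.13 ± 0.06, adjusted p 0.119), nor did Fgl1, a secreted hepatocyte protein (0.38 ± 0.21, adjusted p 0.205), for which the change was called without wild-type array 6 (0.55, adjusted p 0.0329). Ppara did not pass either (−0.24 ± 0.12, adjusted p 0.137), and the change was called without wild-type array 6 (−0.38, adjusted p 0.00102).

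**Figure D3:**
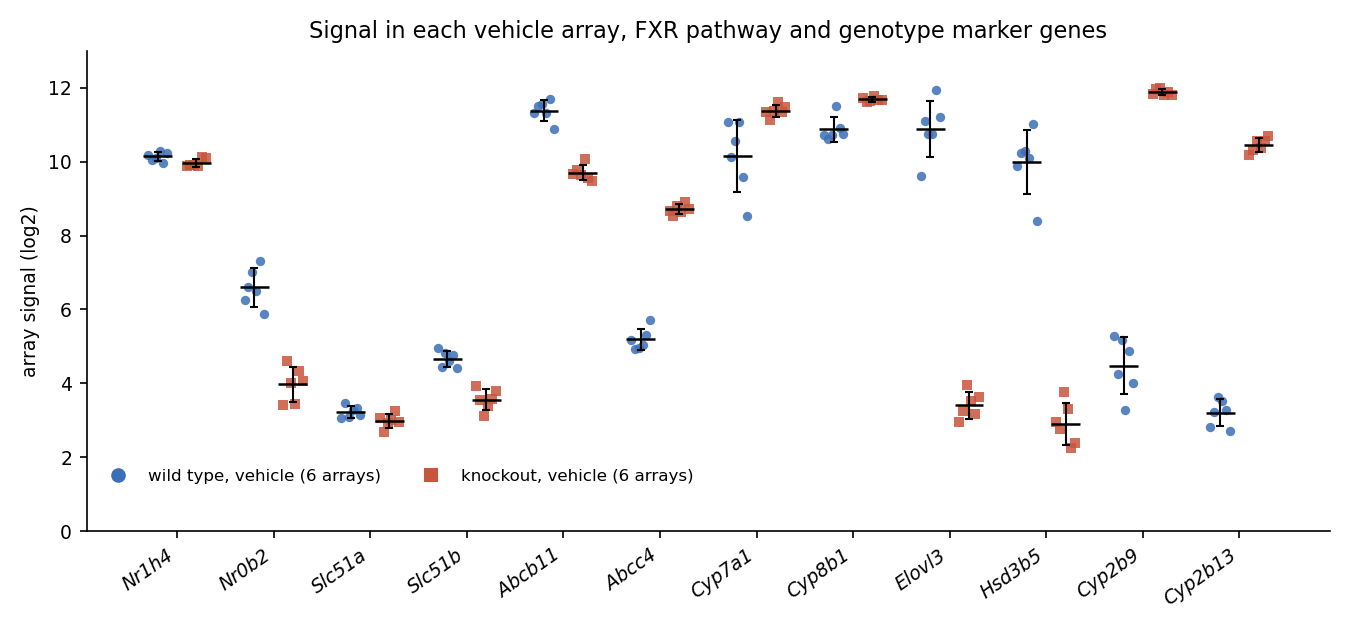
Log2 array signal (vertical axis) of 12 genes in the 6 wild-type (circles) and 6 knockout (squares) vehicle arrays, with the group mean and SD. Nr1h4 and Slc51a overlap between genotypes, while Nr0b2, Slc51b, Abcb11, Elovl3 and Hsd3b5 are lower and Abcc4, Cyp7a1, Cyp8b1, Cyp2b9 and Cyp2b13 higher in every knockout array.

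Bile acid synthesis genes moved in both directions, 4 of 19 higher and 9 lower, with a median of −0.15. Cyp7a1, the rate-limiting enzyme of the classical route, read 8.52 to 11.08 (median 10.34) in the wild-type arrays and 11.13 to 11.61 (median 11.35) in the knockout arrays. The wild-type spread was wide, yet all knockout arrays lay above it, and Cyp7a1 rose by 1.23 ± 0.35 log2 units (2.34-fold, adjusted p 0.0091). Its change was 0.75, adjusted p 0.017 in the arrays of code number 7 and 0.75, adjusted p 0.122 with the code number as a block. Cyp8b1, the 12-alpha-hydroxylase that directs synthesis to cholic acid, read 10.62 to 11.51 (median 10.73) in the wild-type arrays and 11.62 to 11.77 (median 11.66) in the knockout arrays and rose by 0.81 ± 0.14 log2 units (1.75-fold, adjusted p 6.81e-05). In the other direction Cyp7b1, the oxysterol 7-alpha-hydroxylase of the alternative route and a male-biased gene, read 10.19 to 11.76 (median 11.18) in the wild-type arrays and 7.70 to 7.95 (median 7.80) in the knockout arrays. It fell by 3.29 ± 0.26 log2 units (9.76-fold, adjusted p 2.73e-10). Cyp39a1, another oxysterol hydroxylase, fell by 1.46 ± 0.15 log2 units (2.75-fold, adjusted p 3.74e-08), and Cyp2c70, the mouse enzyme that makes muricholic acids, fell by 1.05 ± 0.11 log2 units (2.06-fold, adjusted p 3.79e-08). Cyp27a1, the sterol 27-hydroxylase, fell by 0.45 ± 0.06 log2 units (1.37-fold, adjusted p 1.05e-06), and Amacr, the racemase that precedes side-chain shortening, fell by 0.65 ± 0.07 log2 units (1.57-fold, adjusted p 6.07e-08). The other genes that rose were Akr1d1, the steroid 5-beta-reductase (0.42 ± 0.11, adjusted p 0.00534), and Hsd17b4, a peroxisomal enzyme of side-chain shortening (0.16 ± 0.06, adjusted p 0.0371). For Hsd17b4 the call was lost without wild-type arrays 1, 3 or 5 or knockout arrays 2, 3, 4, 5 or 6 (adjusted p 0.0534 to 0.0996), it was not called with the code number as a block (0.16, adjusted p 0.105), and its change was −0.01 with the median gene set equal. Hsd3b7, a steroid dehydrogenase of the pathway, did not pass (0.21 ± 0.10, adjusted p 0.12), and the change was called without wild-type array 5 (0.30, adjusted p 0.00558).

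Genes of taurine supply, the amino acid to which mouse bile acids are joined, did not move as a block: 2 of 6 rose and 1 fell, while 3 fell without wild-type array 6 and with the median gene set equal. Csad, which makes hypotaurine from cysteine sulfinate, read 9.23 to 10.12 (median 9.90) in the wild-type arrays and 10.71 to 11.10 (median 10.93) in the knockout arrays and rose by 1.10 ± 0.16 log2 units (2.14-fold, adjusted p 6.88e-06). Fmo1, a monooxygenase that oxidises hypotaurine, rose by 0.84 ± 0.09 log2 units (1.8-fold, adjusted p 8.88e-08). Ado, a cysteamine dioxygenase, fell by 0.20 ± 0.06 log2 units (1.14-fold, adjusted p 0.0225), and the call was lost without wild-type array 4 or knockout arrays 4 or 6 (adjusted p 0.0538 to 0.0635). Slc6a6, the taurine carrier, did not pass (−0.24 ± 0.12, adjusted p 0.136), and the change was called without wild-type array 6 (−0.38, adjusted p 0.000641).

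Of 19 measured transporters 5 rose and 9 fell. Abcc4, a bile acid and organic anion exporter of the sinusoidal membrane, read 4.94 to 5.71 (median 5.11) in the wild-type arrays and 8.52 to 8.91 (median 8.69) in the knockout arrays. It rose by 3.51 ± 0.13 log2 units (11.4-fold, adjusted p 1.27e-16), and the lowest knockout array stood far above the highest wild-type array. Abcc3, a related exporter, rose by 1.16 ± 0.10 log2 units (2.23-fold, adjusted p 9.42e-10). Slco1a1, a carrier that takes organic anions into male hepatocytes, read 10.49 to 10.89 (median 10.71) in the wild-type arrays and 3.46 to 5.23 (median 4.21) in the knockout arrays. It fell by 6.40 ± 0.25 log2 units (84.4-fold, adjusted p 7.42e-16). Slco1a4, a related uptake carrier, moved the other way (1.83 ± 0.25, adjusted p 2.97e-06), and the canalicular pump genes Abcb1a (1.39 ± 0.18, adjusted p 1.29e-06) and Abcc2 (0.52 ± 0.08, adjusted p 2.46e-05) rose as well. The sterol transporter genes Abcg5 (−0.23 ± 0.10, adjusted p 0.0871) and Abcg8 (0.25 ± 0.11, adjusted p 0.099) did not pass, and for Abcg5 the change was called without wild-type array 6 (−0.30, adjusted p 0.0195).

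The liver end of the FGF15 axis showed smaller differences, with 1 of 13 genes higher and 3 lower, and 5 lower in the arrays of code number 7 alone. Hnf4a, the hepatocyte nuclear factor that supports Cyp7a1 transcription, fell by 0.52 ± 0.08 log2 units (1.44-fold, adjusted p 2.95e-05) without overlap. Spry4, a feedback inhibitor of FGF receptor signalling, fell by 0.78 ± 0.24 log2 units (1.71-fold, adjusted p 0.0153), and Fgfr2 fell by 0.34 ± 0.12 log2 units (1.26-fold, adjusted p 0.03). For Fgfr2 the call was lost without wild-type arrays 1, 2, 3 or 5 or knockout arrays 1, 5 or 6 (adjusted p 0.0508 to 0.0836). Klb, the co-receptor beta-klotho, missed the threshold (−0.39 ± 0.15, adjusted p 0.0521), and the change was called without wild-type array 6 or knockout array 4 (adjusted p 0.000262 to 0.0383). Dusp6, a phosphatase of the same pathway, rose by 0.70 ± 0.25 log2 units (1.62-fold, adjusted p 0.0427), but the call was lost without wild-type arrays 1, 2, 4 or 6 or knockout arrays 1, 2, 3, 4, 5 or 6 (adjusted p 0.051 to 0.116). Without wild-type array 6 its change was 0.42, adjusted p 0.116. Neither Dusp6 (0.60, adjusted p 0.205) nor Spry4 (−0.65, adjusted p 0.0905) was called with the code number as a block.

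Genes that differ between male and female liver were among those with the largest changes in both directions. Of 24 measured male-biased genes 22 fell and 0 rose, with a median log2 change of −1.80, and in 21 of these genes every knockout array lay below every wild-type array. Elovl3, an elongase of very long chain fatty acids, read 9.62 to 11.94 (median 10.91) in the wild-type arrays and 2.95 to 3.95 (median 3.37) in the knockout arrays. It fell by 7.48 ± 0.29 log2 units (179-fold, adjusted p 6.01e-16). Hsd3b5, a hydroxysteroid dehydrogenase of male liver, read 8.38 to 11.02 (median 10.17) in the wild-type arrays and 2.25 to 3.77 (median 2.85) in the knockout arrays and fell by 7.08 ± 0.30 log2 units (135-fold, adjusted p 2.94e-15). The male-biased cytochromes Cyp2d9 (−3.01 ± 0.14, adjusted p 2.89e-14) and Cyp2u1 (−2.62 ± 0.16, adjusted p 3.22e-12) fell too, as did the serpin Serpina12 (−2.79 ± 0.19, adjusted p 1.74e-11). C8a, a component of the complement lytic complex, fell by 1.10 ± 0.13 log2 units (2.15-fold, adjusted p 2.94e-07). Keg1 (−0.61 ± 0.29, adjusted p 0.128) and Moxd1 (−0.83 ± 0.54, adjusted p 0.274) did not pass, and for Keg1 the change was called without wild-type array 6 (−0.99, adjusted p 3.74e-05).

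Major urinary proteins are pheromone carriers that male liver secretes in large amounts. Mup3 read 12.41 to 12.58 (median 12.50) in the wild-type arrays and 9.23 to 10.10 (median 9.88) in the knockout arrays. It fell by 2.70 ± 0.16 log2 units (6.5-fold, adjusted p 2.16e-12). Mup21 fell by 3.38 ± 0.24 log2 units (10.4-fold, adjusted p 3.13e-11). Probe sets of such close copies may share signal, so each value may hold that of its relatives.

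Female-biased genes moved the other way: 16 of 22 rose, 0 fell and the median log2 change was 1.42. Cyp2b9, a cytochrome of female liver, read 3.27 to 5.29 (median 4.56) in the wild-type arrays and 11.81 to 11.99 (median 11.85) in the knockout arrays. It rose by 7.40 ± 0.38 log2 units (169-fold, adjusted p 8.66e-14). Cyp2b13, its neighbour with the nearly identical promoter window above, read 2.72 to 3.63 (median 3.25) in the wild-type arrays and 10.19 to 10.69 (median 10.45) in the knockout arrays and rose by 7.25 ± 0.18 log2 units (152-fold, adjusted p 3.45e-20). The 2 genes are close copies whose probe sets may share signal. Cyp17a1, the steroid 17-alpha-hydroxylase, rose by 2.59 ± 0.22 log2 units (6.04-fold, adjusted p 1.08e-09), and the organic anion transporter gene Slc22a27 rose by 2.67 ± 0.22 log2 units (6.36-fold, adjusted p 9.76e-10). Fmo2, a flavin monooxygenase, rose by 2.09 ± 0.22 log2 units (4.26-fold, adjusted p 4.02e-08), and Rtn4, a protein that shapes the endoplasmic reticulum, rose by 1.43 ± 0.07 log2 units (2.7-fold, adjusted p 1.13e-13). Sult1e1, the oestrogen sulfotransferase, overlapped between groups (0.75 ± 0.46, adjusted p 0.245), with 1 wild-type array at 6.05 against a median of 2.77, and the change was called without wild-type array 6 (1.31, adjusted p 0.00227). Nnmt did not pass and lay in the opposite direction (−0.90 ± 0.39, adjusted p 0.0885). With the median gene set equal between arrays, 2 of the list's genes were called lower and 16 higher.

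Growth hormone signalling genes fell more often than they rose, with 10 of 21 lower and 3 higher (median −0.36). Socs2, a feedback inhibitor that STAT5 induces, read 7.85 to 9.41 (median 8.96) in the wild-type arrays and 6.80 to 7.70 (median 7.34) in the knockout arrays and fell by 1.48 ± 0.29 log2 units (2.79-fold, adjusted p 0.000322). Igf1, the growth factor that liver releases under growth hormone, fell by 0.68 ± 0.07 log2 units (1.6-fold, adjusted p 2.34e-08), and Ghr, the hormone's receptor, fell by 0.39 ± 0.05 log2 units (1.31-fold, adjusted p 5.01e-07). Igf1 is also among the 30 genes nearest Nr1h4, which are described below. Igfbp2 fell by 1.10 ± 0.12 log2 units (2.14-fold, adjusted p 7.27e-08) while Igfbp3 rose by 1.18 ± 0.12 log2 units (2.26-fold, adjusted p 5.19e-08), 2 binding proteins of IGF1. Jak2, the kinase on the growth hormone receptor, rose slightly (0.21 ± 0.07, adjusted p 0.0192), and the call was lost without knockout array 5 (0.17, adjusted p 0.0637). It was 0.23, adjusted p 0.0509 with the code number as a block. Cux2, a repressor of male-biased genes that is itself higher in females, read 3.94 to 4.87 (median 4.13) in the wild-type arrays and 4.66 to 5.63 (median 5.26) in the knockout arrays. It rose by 0.99 ± 0.23 log2 units (1.99-fold, adjusted p 0.00149), with overlapping arrays. Bcl6, a male-biased repressor, varied within both groups (read 6.06 to 9.27 (median 6.91) in the wild-type arrays and 5.70 to 8.27 (median 6.39) in the knockout arrays) and did not pass (−0.36 ± 0.56, adjusted p 0.696).

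Of 17 measured genes that respond to CAR and PXR 10 rose and 2 fell, with a median of 0.43. Cyp2b10, the standard CAR target, read 4.97 to 7.86 (median 6.25) in the wild-type arrays and 9.74 to 10.50 (median 10.38) in the knockout arrays. It rose by 4.13 ± 0.39 log2 units (17.5-fold, adjusted p 6.94e-09), and every knockout array lay above the wild-type range. Cyp2c55 read 5.49 to 6.62 (median 6.20) in the wild-type arrays and 10.49 to 10.74 (median 10.67) in the knockout arrays and rose by 4.52 ± 0.18 log2 units (23-fold, adjusted p 7.39e-16). Gadd45b, a stress-induced gene that CAR activates, rose by 2.47 ± 0.24 log2 units (5.55-fold, adjusted p 1.61e-08). The aldehyde dehydrogenase genes Aldh1a1 (0.72 ± 0.06, adjusted p 1.53e-09) and Aldh1a7 (0.84 ± 0.07, adjusted p 2.91e-10) rose by less. Alas1, the first enzyme of haem synthesis, did not pass (0.38 ± 0.18, adjusted p 0.114). The 2 that fell were Nr1i2, which encodes PXR itself and fell by 0.29 ± 0.08 log2 units (1.22-fold, adjusted p 0.00867), and the cytochrome gene Cyp2c37 (−0.86 ± 0.14, adjusted p 4.34e-05).

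NRF2 targets and glutathione genes were higher in 16 of 17 cases and lower in 0, with a median of 0.86. Gstm3, a glutathione transferase, read 11.38 to 12.14 (median 11.73) in the wild-type arrays and 13.36 to 13.46 (median 13.43) in the knockout arrays. It rose by 1.68 ± 0.11 log2 units (3.2-fold, adjusted p 1.73e-11). Gstm2 rose by 1.56 ± 0.08 log2 units (2.95-fold, adjusted p 8.75e-14), and Ugdh, which makes UDP-glucuronic acid, rose by 1.55 ± 0.08 log2 units (2.94-fold, adjusted p 7.6e-14). Srxn1, the enzyme that repairs peroxiredoxins, rose by 1.57 ± 0.10 log2 units (2.96-fold, adjusted p 9.53e-12), and the carbonyl reductase gene Cbr3 rose by 2.09 ± 0.18 log2 units (4.26-fold, adjusted p 1.51e-09). Ephx1, the microsomal epoxide hydrolase, rose by 0.78 ± 0.06 log2 units (1.72-fold, adjusted p 5.34e-11). Txnrd1 was the member that did not pass (0.12 ± 0.07, adjusted p 0.265), and the change was called without wild-type array 6 (0.19, adjusted p 0.0161).

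Cholesterol synthesis genes were higher in 11 of 20 cases and lower in 1, with a median of 0.28. Hmgcs1, which makes HMG-CoA, read 8.62 to 9.66 (median 9.50) in the wild-type arrays and 10.42 to 10.62 (median 10.54) in the knockout arrays and rose by 1.18 ± 0.16 log2 units (2.27-fold, adjusted p 3.13e-06). Mvd (1.35 ± 0.26, adjusted p 0.00029), Fdft1, the squalene synthase (0.82 ± 0.13, adjusted p 2.51e-05), Msmo1 (0.72 ± 0.15, adjusted p 0.000653) and Dhcr7, the last step to cholesterol (0.64 ± 0.09, adjusted p 4.52e-06), rose with non-overlapping arrays. Ebp, a sterol isomerase, fell by 0.28 ± 0.06 log2 units (1.21-fold, adjusted p 0.000778). The list's median was 0.40 log2 units lower in wild-type array 6 than in the other wild-type arrays, and without that array 9 genes rose and 2 fell.

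Fatty acid synthesis genes split, 8 of 23 higher and 6 lower. Scd2, a stearoyl-CoA desaturase, rose by 1.03 ± 0.12 log2 units (2.05-fold, adjusted p 3.35e-07), Fasn, the fatty acid synthase, rose by 0.94 ± 0.20 log2 units (1.92-fold, adjusted p 0.00073), and Elovl6 rose by 0.80 ± 0.15 log2 units (1.74-fold, adjusted p 0.000162). Me1, the malic enzyme that supplies NADPH, rose by 0.74 ± 0.13 log2 units (1.67-fold, adjusted p 5.84e-05). Elovl2, an elongase of polyunsaturated fatty acids, fell by 0.55 ± 0.07 log2 units (1.46-fold, adjusted p 3.95e-07), and Agpat2, an acyltransferase of triglyceride synthesis, fell by 0.44 ± 0.09 log2 units (1.36-fold, adjusted p 0.000525). With the code number as a block 6 of the list's genes were higher and 6 lower, and the change of Elovl6 was 0.53, adjusted p 0.0107.

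Lipid droplet genes were higher in 8 of 15 cases and lower in 0. Cidec, a droplet fusion protein, read 5.60 to 8.24 (median 6.31) in the wild-type arrays and 8.47 to 9.40 (median 8.87) in the knockout arrays. It rose by 2.33 ± 0.30 log2 units (5.02-fold, adjusted p 9.72e-07). The monoacylglycerol acyltransferase genes Mogat1 (3.31 ± 0.19, adjusted p 9.22e-13) and Mogat2 (2.19 ± 0.14, adjusted p 3.12e-12) rose from signals near the low end of the scale in all 6 wild-type arrays. Fitm1, which helps triglyceride to enter droplets, rose by 1.22 ± 0.11 log2 units (2.33-fold, adjusted p 5.24e-09), and the coat protein gene Plin4 rose by 1.72 ± 0.33 log2 units (3.3-fold, adjusted p 0.00021) with overlapping arrays. Pparg, the nuclear receptor that promotes fat storage, read 6.72 to 7.64 (median 6.98) in the wild-type arrays and 8.09 to 8.24 (median 8.14) in the knockout arrays and rose by 1.11 ± 0.12 log2 units (2.16-fold, adjusted p 6.67e-08). With the median gene set equal between arrays, 6 of the 15 droplet genes were higher and 4 lower.

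Of 22 measured PPAR-alpha and fatty acid oxidation genes 11 rose and 2 fell, with a median of 0.32. Cd36, a fatty acid carrier of the cell surface, read 7.62 to 8.86 (median 7.97) in the wild-type arrays and 10.45 to 10.62 (median 10.56) in the knockout arrays. It rose by 2.49 ± 0.14 log2 units (5.62-fold, adjusted p 5.3e-13). Pdk4, which restrains pyruvate oxidation, rose by 2.37 ± 0.30 log2 units (5.17-fold, adjusted p 1.07e-06), and the thioesterase gene Acot2 rose by 1.92 ± 0.21 log2 units (3.79-fold, adjusted p 1.09e-07). Vnn1, a pantetheinase, rose by 1.89 ± 0.20 log2 units (3.72-fold, adjusted p 6.64e-08), and the peroxisomal genes Pex11a (1.18 ± 0.14, adjusted p 2.1e-07) and Ehhadh (0.64 ± 0.09, adjusted p 8.91e-06) rose as well. The 2 that fell were Cpt1a, which admits fatty acids to mitochondria (−0.25 ± 0.08, adjusted p 0.0213), and Fabp1, the liver fatty acid binding protein (−0.22 ± 0.07, adjusted p 0.0172). For Cpt1a the call was lost without wild-type array 4 or knockout array 2 (adjusted p 0.0521 to 0.068). Cyp4a14, a fatty acid hydroxylase and also a female-biased gene, read 10.19 to 11.71 (median 11.30) in the wild-type arrays and 12.04 to 12.38 (median 12.23) in the knockout arrays. Its arrays did not overlap, but its change did not pass (1.08 ± 0.47, adjusted p 0.0885). In the arrays of code number 7 alone it was called (0.97, adjusted p 0.00321).

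Lipoprotein genes were higher in 4 of 21 cases and lower in 6. Scarb1, the receptor for high density lipoprotein, fell by 0.41 ± 0.07 log2 units (1.33-fold, adjusted p 3.46e-05), and Apom fell by 0.42 ± 0.09 log2 units (1.34-fold, adjusted p 0.000559). Lpl, lipoprotein lipase, rose by 0.83 ± 0.16 log2 units (1.78-fold, adjusted p 0.000198); it is expressed by macrophages and other cells and little by adult hepatocytes. Apoa4, an apolipoprotein (0.66 ± 0.19, adjusted p 0.0107), and the sterol exporter gene Abcg1 (0.33 ± 0.09, adjusted p 0.00938) rose beside Vldlr. Apoa4 was not called with the code number as a block (0.65, adjusted p 0.0594). Apoa1 did not pass (−0.10 ± 0.04, adjusted p 0.0698). With the median gene set equal, 3 rose and 14 fell.

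Genes of glucose and amino acid metabolism were lower. In the glucose and glycogen list 9 of 16 fell and 0 rose (median −0.45). Pck1, the cytosolic enzyme that starts gluconeogenesis, read 12.32 to 12.63 (median 12.37) in the wild-type arrays and 10.98 to 11.36 (median 11.20) in the knockout arrays. It fell by 1.23 ± 0.13 log2 units (2.34-fold, adjusted p 5.67e-08). G6pc, the glucose-6-phosphatase that releases glucose, read 11.56 to 12.35 (median 11.93) in the wild-type arrays and 9.89 to 11.26 (median 10.69) in the knockout arrays and fell by 1.34 ± 0.21 log2 units (2.54-fold, adjusted p 1.59e-05). The glycogen synthase gene Gys2 (−0.70 ± 0.11, adjusted p 1.58e-05) and the phosphorylase gene Pygl (−0.42 ± 0.06, adjusted p 6.98e-06) both fell. Ppargc1a, a coactivator of gluconeogenic genes, fell by 0.61 ± 0.13 log2 units (1.53-fold, adjusted p 0.000622), and Pfkfb3, a regulator of glycolysis, fell by 0.85 ± 0.18 log2 units (1.8-fold, adjusted p 0.000819).

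Of 14 urea cycle and amino acid genes 12 fell and 0 rose, with a median of −0.39. Hal, the histidase that starts histidine breakdown, read 10.84 to 11.47 (median 11.29) in the wild-type arrays and 9.45 to 10.07 (median 9.59) in the knockout arrays. It fell by 1.53 ± 0.13 log2 units (2.89-fold, adjusted p 1.61e-09). Prodh, which oxidises proline, fell by 1.39 ± 0.09 log2 units (2.61-fold, adjusted p 3.47e-12), and Agxt, which detoxifies glyoxylate, fell by 1.00 ± 0.09 log2 units (2-fold, adjusted p 6.09e-09). Tdo2, the tryptophan dioxygenase, (−0.52 ± 0.07, adjusted p 2.95e-06) and the urea cycle genes Otc (−0.41 ± 0.05, adjusted p 1.39e-06) and Cps1 (−0.30 ± 0.05, adjusted p 5.33e-05) fell by less, without overlap. Glud1 did not pass (0.07 ± 0.05, adjusted p 0.305).

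Complement and coagulation genes were lower in 15 of 27 cases and higher in 1, with a median of −0.24. C9, the last component of the lytic pore, read 11.10 to 11.69 (median 11.26) in the wild-type arrays and 9.00 to 9.35 (median 9.29) in the knockout arrays. It fell by 2.05 ± 0.16 log2 units (4.14-fold, adjusted p 3.71e-10). C8b (−1.22 ± 0.12, adjusted p 1.39e-08) and C8g (−0.53 ± 0.05, adjusted p 3.69e-09), which join the same pore, fell too. F7, coagulation factor VII, fell by 1.00 ± 0.09 log2 units (2-fold, adjusted p 3.41e-09), and Proc, protein C, fell by 0.43 ± 0.05 log2 units (1.35-fold, adjusted p 2.08e-07). Mbl2, a mannose-binding lectin, was the member that rose (0.24 ± 0.08, adjusted p 0.0212), and the call was lost without wild-type arrays 4 or 6 or knockout array 6 (adjusted p 0.0551 to 0.0563). With the code number as a block Mbl2 was not called (0.17, adjusted p 0.187). Fga, a fibrinogen chain, did not pass (−0.38 ± 0.16, adjusted p 0.0901) and had 1 wild-type array at 12.14 against a median of 10.95. With the median gene set equal, 25 of the 27 were lower and 0 higher.

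Acute phase genes, which hepatocytes raise in inflammation, gave mixed results: 6 of 22 rose and 4 fell, and the list's median was 0.01. This list read highest in wild-type array 6. Its mean log2 signal over members was 10.62 to 10.85 in the knockout arrays and 10.01 to 11.61 in the wild-type arrays. Orm2, an acid glycoprotein, read 7.46 to 10.66 (median 8.08) in the wild-type arrays and 11.60 to 12.04 (median 11.82) in the knockout arrays. It rose by 3.43 ± 0.44 log2 units (10.8-fold, adjusted p 1.27e-06), and without wild-type array 6 the change was 3.88, adjusted p 8.37e-09. Lcn2, lipocalin 2, read 7.79 to 13.06 (median 8.01) in the wild-type arrays and 11.88 to 12.45 (median 12.33) in the knockout arrays. It rose by 3.28 ± 0.72 log2 units (9.73-fold, adjusted p 0.000944) with overlap, since 1 wild-type array exceeded every knockout array; the change without wild-type array 6 was 4.10, adjusted p 1.16e-06. Saa2, serum amyloid A2, read 6.99 to 12.88 (median 7.75) in the wild-type arrays and 9.43 to 10.28 (median 10.06) in the knockout arrays. It did not pass (1.42 ± 0.84, adjusted p 0.231), and the change was called without wild-type array 6 (2.29, adjusted p 0.0123). Il1r1, the receptor for interleukin 1, read 8.51 to 11.69 (median 8.78) in the wild-type arrays and 6.75 to 7.30 (median 7.02) in the knockout arrays and fell by 2.24 ± 0.36 log2 units (4.72-fold, adjusted p 3.38e-05). Apcs, serum amyloid P, rose by 1.26 ± 0.25 log2 units (2.4-fold, adjusted p 0.000394). Saa4 fell by 0.76 ± 0.15 log2 units (1.69-fold, adjusted p 0.000306), and Saa3 (−1.31 ± 0.42, adjusted p 0.0193) and Itih3 (−0.65 ± 0.14, adjusted p 0.000729) were the other members that fell. For Saa3 the call was lost without wild-type array 6 (−1.01, adjusted p 0.0574), and it was not called with the code number as a block (−0.81, adjusted p 0.271). The direction of the list's median changed with the scaling, to −0.01 with each array centred on its own median and to −0.16 with the median gene set equal, where 5 genes were higher and 6 lower.

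Markers of cells other than hepatocytes were measured in the same RNA. In whole liver more cells of a type and more RNA per cell cannot be told apart. Stellate cell and matrix genes were higher in 20 of 23 cases and lower in 0, with a median of 1.02. Col1a1, a chain of type I collagen, read 5.44 to 5.87 (median 5.60) in the wild-type arrays and 7.04 to 7.39 (median 7.19) in the knockout arrays. It rose by 1.54 ± 0.15 log2 units (2.9-fold, adjusted p 1.18e-08). Col3a1 (1.54 ± 0.15, adjusted p 2e-08), Col1a2 (1.25 ± 0.12, adjusted p 1.26e-08) and Col6a3 (1.61 ± 0.11, adjusted p 1.23e-11) rose alike. Lum, the matrix proteoglycan lumican, rose by 1.55 ± 0.10 log2 units (2.92-fold, adjusted p 1.4e-11), and Vim, the filament protein of mesenchymal cells, rose by 1.22 ± 0.10 log2 units (2.32-fold, adjusted p 4.72e-10). Acta2, smooth muscle actin, spread widely among knockout arrays: it read 5.93 to 7.15 (median 6.64) in the wild-type arrays and 6.80 to 8.67 (median 7.44) in the knockout arrays and rose by 1.02 ± 0.28 log2 units (2.03-fold, adjusted p 0.00775). The change of Acta2 was 0.64, adjusted p 0.0784 with the code number as a block. Ngfr (−0.21 ± 0.11, adjusted p 0.178) and Lamb1 (0.21 ± 0.08, adjusted p 0.0652) did not pass, and for Lamb1 the change was called without wild-type arrays 2 or 5 (adjusted p 0.0317 to 0.0429).

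All 10 measured genes of lipid-associated macrophages rose, with a median of 1.55. Mmp12, the macrophage elastase, read 3.44 to 4.38 (median 4.10) in the wild-type arrays and 8.36 to 9.05 (median 8.50) in the knockout arrays. It rose by 4.58 ± 0.17 log2 units (23.9-fold, adjusted p 2.14e-16). Gpnmb, a lysosomal membrane glycoprotein of these cells, read 3.36 to 4.13 (median 3.59) in the wild-type arrays and 6.94 to 7.30 (median 7.06) in the knockout arrays and rose by 3.42 ± 0.11 log2 units (10.7-fold, adjusted p 1.14e-17). The tetraspanin gene Cd63 (3.00 ± 0.18, adjusted p 2.01e-12) and the proton pump gene Atp6v0d2 (3.14 ± 0.35, adjusted p 1.01e-07) followed. Trem2, a lipid receptor of macrophages, rose by 1.42 ± 0.12 log2 units (2.67-fold, adjusted p 2.26e-09), Itgax, the integrin CD11c, rose by 1.61 ± 0.15 log2 units (3.06-fold, adjusted p 4.22e-09), and Lgals3, galectin 3, rose by 1.48 ± 0.15 log2 units (2.8-fold, adjusted p 3.95e-08). The mean log2 signal over the list was 5.17 to 5.64 in the wild-type arrays and 7.41 to 7.74 in the knockout arrays.

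Of 12 Kupffer cell markers 8 rose and 0 fell, with a median of 0.75. Clec4f, a lectin of resident Kupffer cells, read 9.34 to 9.81 (median 9.45) in the wild-type arrays and 9.84 to 10.04 (median 9.99) in the knockout arrays and rose by 0.47 ± 0.09 log2 units (1.38-fold, adjusted p 0.0002). Vsig4, a complement receptor, rose by 1.01 ± 0.19 log2 units (2.01-fold, adjusted p 0.000204), and Cd68, a lysosomal protein of all macrophages, rose by 1.52 ± 0.16 log2 units (2.86-fold, adjusted p 5.89e-08). The complement C1q genes C1qa (0.79 ± 0.18, adjusted p 0.00121), C1qb (0.91 ± 0.19, adjusted p 0.000608) and C1qc (0.97 ± 0.21, adjusted p 0.000726) rose, and C1qb overlapped between groups. Adgre1, which encodes F4/80, missed the threshold (0.70 ± 0.27, adjusted p 0.0518), and the change was called without wild-type arrays 5 or 6 (adjusted p 0.0193 to 0.0461). Without wild-type array 6, 10 of the 12 were higher, with a median of 0.88.

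**Figure D4:**
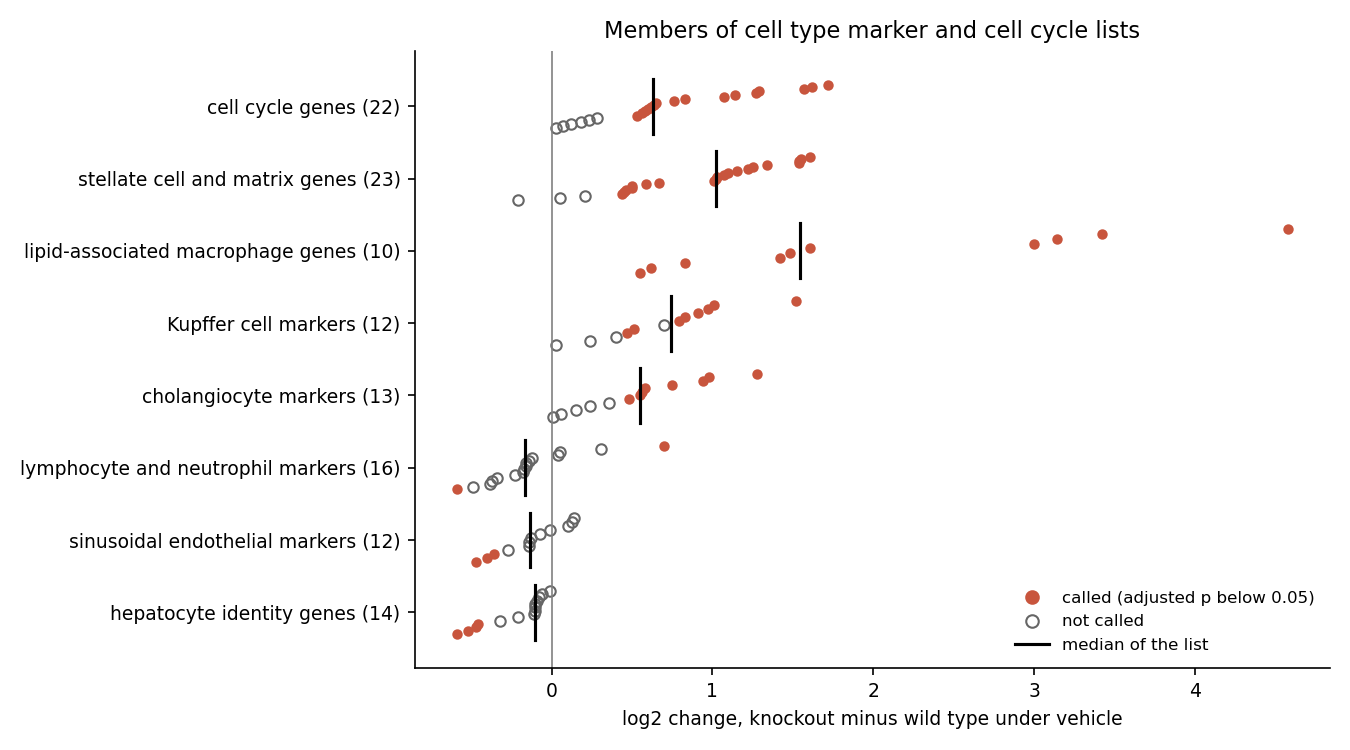
Log2 change, knockout minus wild type under vehicle (horizontal axis), of every measured member of 8 lists of cell type markers and cell cycle genes, with filled points called and open points not called, and a bar at each list's median. The stellate (median 1.02), macrophage (1.55), Kupffer (0.75), cholangiocyte (0.55) and cell cycle (0.63) lists lie to the right of 0, the lymphocyte, endothelial and hepatocyte lists near it.

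Cholangiocyte markers were higher in 8 of 13 cases and lower in 0, with a median of 0.55. Cd24a, a surface protein of biliary and progenitor cells, read 4.90 to 5.30 (median 5.18) in the wild-type arrays and 6.25 to 6.53 (median 6.43) in the knockout arrays and rose by 1.28 ± 0.10 log2 units (2.43-fold, adjusted p 4.52e-10). Tspan8 (0.94 ± 0.12, adjusted p 1.21e-06), Epcam (0.58 ± 0.11, adjusted p 0.000123) and Cldn7 (0.55 ± 0.08, adjusted p 7.08e-06) rose from low signals. The keratin genes Krt8 (0.98 ± 0.11, adjusted p 1.35e-07) and Krt18 (0.75 ± 0.09, adjusted p 6.53e-07), which hepatocytes also express, rose without overlap. Krt7, a keratin of bile ducts, did not pass (0.24 ± 0.11, adjusted p 0.0983), nor did Cftr (0.15 ± 0.10, adjusted p 0.318), which read near the low end of the scale in all 12 arrays. For Krt7 the change was called without knockout array 6 (0.29, adjusted p 0.0495).

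Other non-parenchymal lists did not follow. Sinusoidal endothelial markers were lower in 3 of 12 cases and higher in 0: Dnase1l3 (−0.47 ± 0.09, adjusted p 0.00015), Oit3 (−0.40 ± 0.12, adjusted p 0.0171) and Kdr, the receptor for vascular endothelial growth factor (−0.36 ± 0.09, adjusted p 0.00377). For Oit3 the call was lost without knockout array 6 (−0.32, adjusted p 0.0561), and it was not called with the code number as a block (−0.39, adjusted p 0.0632). Without wild-type array 1 the list had 5 lower genes, and with the median gene set equal 7. Of 16 lymphocyte and neutrophil markers 1 rose, Ptprc, the pan-leukocyte protein CD45 (0.70 ± 0.16, adjusted p 0.00121), and 1 fell, Cd4 (−0.59 ± 0.13, adjusted p 0.00121), with 9 lower when the median gene was set equal. Among 10 adipocyte, pancreatic and red cell markers 1 fell, Alas2, the haem synthesis enzyme of red cell precursors (−1.15 ± 0.11, adjusted p 1.13e-08). Hepatocyte identity genes fell in 4 of 14 cases and rose in 0 (median −0.11), with Foxa2 (−0.59 ± 0.18, adjusted p 0.0162), Foxa3 (−0.47 ± 0.13, adjusted p 0.00544) and Prox1 (−0.46 ± 0.13, adjusted p 0.011) beside Hnf4a. Foxa2 (−0.51, adjusted p 0.114) and Prox1 (−0.42, adjusted p 0.0744) were not called with the code number as a block, where Foxa3 was −0.71, adjusted p 0.000283. With the median gene set equal 13 of these 14 were lower. Ttr, transthyretin, differed little and did not pass (−0.09 ± 0.04, adjusted p 0.134). The macrophage, stellate and biliary lists moved with the genotype together with the lower metabolic lists, and their part in those results was not tested.

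Chemokine and inflammation genes were higher in 9 of 23 cases and lower in 2. Ccl3 read 3.26 to 3.77 (median 3.53) in the wild-type arrays and 4.42 to 5.28 (median 5.03) in the knockout arrays and rose by 1.42 ± 0.19 log2 units (2.67-fold, adjusted p 1.78e-06); this chemokine attracts monocytes. Ccl2, another, rose by 0.79 ± 0.15 log2 units (1.72-fold, adjusted p 0.000229), and its receptor gene Ccr2 rose by 0.63 ± 0.17 log2 units (1.54-fold, adjusted p 0.00574). Vcam1, an adhesion molecule, rose by 1.37 ± 0.22 log2 units (2.58-fold, adjusted p 3.78e-05), and Cxcl10 rose by 1.13 ± 0.20 log2 units (2.19-fold, adjusted p 9.23e-05), both with overlapping arrays. Tlr4, the receptor for endotoxin, rose by 0.54 ± 0.12 log2 units (1.45-fold, adjusted p 0.00137). The 2 that fell were Ccl24 (−0.50 ± 0.14, adjusted p 0.00964) and Il6 (−0.25 ± 0.09, adjusted p 0.0301), and for Il6 the call was lost without wild-type arrays 3, 4 or 6 or knockout arrays 1, 3 or 6 (adjusted p 0.0572 to 0.0774). Neither Ccl24 (−0.38, adjusted p 0.132) nor Il6 (−0.24, adjusted p 0.115) was called with the code number as a block. The top wild-type reading of Ccl24, 5.40, was that of array 5.

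Interferon-stimulated genes were called in both directions, 4 of 19 higher and 2 lower. The shares over all genes were 15.4% higher and 12.1% lower. Oasl2 rose by 0.64 ± 0.11 log2 units (1.56-fold, adjusted p 3.81e-05), and Oas2 (0.50 ± 0.14, adjusted p 0.00876), Oasl1 (0.38 ± 0.13, adjusted p 0.0269) and Ddx58 (0.36 ± 0.10, adjusted p 0.0074) were higher too. For Oasl1 the call was lost without wild-type array 6 or knockout array 2 (adjusted p 0.0528 to 0.0755). Neither Oasl1 (0.22, adjusted p 0.321) nor Ddx58 (0.24, adjusted p 0.16) was called with the code number as a block, nor in the arrays of code number 7 alone. Ifit3 fell by 0.56 ± 0.15 log2 units (1.48-fold, adjusted p 0.00515) and Irf9, a part of the factor that binds these genes, fell by 0.39 ± 0.09 log2 units (1.31-fold, adjusted p 0.00172). The interferon list's median of 0.16 turned to −0.01 with quantile normalization and with the median gene set equal. The balance of calls turned as well, to 2 higher and 3 lower with the code number as a block and in number 7 alone, to 3 and 3 without wild-type array 6, to 3 and 5 with quantile normalization and to 2 and 7 with the median gene set equal.

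Cell cycle genes were higher in 16 of 22 cases and lower in 0, with a median of 0.63. Ccnd1, cyclin D1, which drives entry into the cycle, read 7.54 to 8.57 (median 8.40) in the wild-type arrays and 9.66 to 10.08 (median 9.82) in the knockout arrays. It rose by 1.62 ± 0.18 log2 units (3.08-fold, adjusted p 9.73e-08). Mcm2, a subunit of the replicative helicase, read 5.05 to 5.47 (median 5.31) in the wild-type arrays and 6.58 to 7.27 (median 6.81) in the knockout arrays and rose by 1.57 ± 0.11 log2 units (2.97-fold, adjusted p 6.89e-11). Mcm6 (1.27 ± 0.15, adjusted p 4.26e-07), Mcm3 (0.76 ± 0.14, adjusted p 0.000186) and Mcm4 (0.64 ± 0.12, adjusted p 0.00016) of the same complex rose, and Mki67, the proliferation antigen Ki-67, rose by 1.14 ± 0.22 log2 units (2.2-fold, adjusted p 0.000329). Pcna (0.07 ± 0.07, adjusted p 0.536) and Birc5 (0.23 ± 0.13, adjusted p 0.204) did not pass. Cdkn1a, the cell cycle inhibitor p21, read 4.78 to 10.23 (median 5.46) in the wild-type arrays and 7.43 to 8.26 (median 7.86) in the knockout arrays and rose by 1.72 ± 0.56 log2 units (3.3-fold, adjusted p 0.0221). The change without wild-type array 6 was 2.54, adjusted p 8.2e-10, and the call was lost without wild-type arrays 1, 3 or 4 (adjusted p 0.0582 to 0.0622). Myc varied in both groups (read 6.36 to 9.88 (median 8.03) in the wild-type arrays and 7.89 to 9.74 (median 8.19) in the knockout arrays) and did not pass (0.28 ± 0.42, adjusted p 0.676).

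Oncofetal and tumour-linked genes were higher in 10 of 16 cases and lower in 0. Ly6d, a surface protein of epithelial cells, read 4.52 to 5.06 (median 4.84) in the wild-type arrays and 9.18 to 10.28 (median 9.90) in the knockout arrays. It rose by 4.99 ± 0.15 log2 units (31.8-fold, adjusted p 2.24e-18). Akr1c18, a steroid reductase, rose by 3.72 ± 0.20 log2 units (13.2-fold, adjusted p 3.55e-13), and Igf2bp3, a fetal RNA-binding protein, rose by 2.19 ± 0.13 log2 units (4.58-fold, adjusted p 7.19e-13). Anxa2 (2.27 ± 0.11, adjusted p 1.86e-14) and Anxa5 (1.30 ± 0.08, adjusted p 2.84e-12), annexins that bind membranes with calcium, and Ddr1, a collagen receptor (1.48 ± 0.11, adjusted p 1.04e-10), rose without overlap. The fetal genes Igf2 (−0.16 ± 0.12, adjusted p 0.366), Dlk1 (−0.24 ± 0.12, adjusted p 0.167) and Gpc3 (0.18 ± 0.10, adjusted p 0.183) did not pass, and Gpc3 was called with the code number as a block (0.35, adjusted p 0.0201).

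Genes of liver zones moved in both directions. Of 17 pericentral genes 8 rose and 3 fell. Rhbg, an ammonium transporter, rose by 1.22 ± 0.14 log2 units (2.34-fold, adjusted p 3.17e-07), while Glul, the glutamine synthetase of the last cell layer, fell by 0.43 ± 0.08 log2 units (1.35-fold, adjusted p 0.000138) and Slc1a2, a glutamate carrier, fell by 0.68 ± 0.08 log2 units (1.6-fold, adjusted p 6.6e-07). The other that fell was Nkd1, a Wnt inhibitor (−0.42 ± 0.10, adjusted p 0.00331). Axin2, a target of Wnt signalling, did not pass (0.33 ± 0.16, adjusted p 0.122). Of 11 periportal genes 2 rose and 4 fell, the latter being Cyp2f2 (−0.36 ± 0.05, adjusted p 7.64e-06), Etnppl, a phosphoethanolamine lyase (−2.25 ± 0.18, adjusted p 3.25e-10), Hal and Pck1. Aldh1b1 (0.69 ± 0.11, adjusted p 2.63e-05) and Hsd17b13 (0.17 ± 0.05, adjusted p 0.00867) rose, and Hsd17b13 was not called with the code number as a block (0.15, adjusted p 0.0812). The pericentral list had 5 higher genes with the code number as a block, and 5 higher and 6 lower with the median gene set equal.

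Clock genes were lower in 2 of 17 cases, Cry1 (−0.75 ± 0.17, adjusted p 0.00148) and Nfil3 (−0.95 ± 0.31, adjusted p 0.0245), and higher in 0. The count of lower clock genes lies near the share of all genes called lower, 12.1%. For Nfil3 the call was lost without knockout array 1 (−0.88, adjusted p 0.0532), its change was −0.55, adjusted p 0.0364 without wild-type array 6, and it was not called with the code number as a block (−0.37, adjusted p 0.398). In the arrays of code number 7 alone 5 of the 17 were lower. Endoplasmic reticulum stress genes fell in 11 of 18 cases and rose in 2. Xbp1, a transcription factor of the unfolded protein response, fell by 0.60 ± 0.11 log2 units (1.51-fold, adjusted p 0.000201), Herpud1 fell by 0.48 ± 0.07 log2 units (1.4-fold, adjusted p 4.3e-06) and Atf4 fell by 0.54 ± 0.08 log2 units (1.46-fold, adjusted p 7.53e-06). Chac1, a glutathione-degrading enzyme, fell by 1.32 ± 0.26 log2 units (2.5-fold, adjusted p 0.00028). The 2 that rose were Asns, the asparagine synthetase, which read 5.19 to 6.37 (median 5.85) in the wild-type arrays and 8.16 to 8.56 (median 8.28) in the knockout arrays and rose by 2.47 ± 0.22 log2 units (5.53-fold, adjusted p 3.06e-09), and the stress factor Atf3, which rose by 1.62 ± 0.20 log2 units (3.08-fold, adjusted p 7.12e-07). Hspa5, the chaperone BiP, did not pass (−0.25 ± 0.11, adjusted p 0.0906), and the change was called without wild-type array 3 (−0.31, adjusted p 0.0339). In the arrays of code number 7 alone, and without knockout array 4, 7 of the 18 fell.

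Nuclear receptor genes of liver fell in 5 of 20 cases and rose in 1, which was Pparg. Thrb, a thyroid hormone receptor, fell by 0.52 ± 0.08 log2 units (1.44-fold, adjusted p 7.25e-06), and Rxra, the partner of FXR, fell by 0.22 ± 0.06 log2 units (1.16-fold, adjusted p 0.0087). Rxra was not called with the code number as a block (−0.19, adjusted p 0.0753). Nr0b2, Hnf4a and Nr1i2 were the others that fell. Without wild-type array 6, and in the arrays of code number 7 alone, 9 were lower, and with the median gene set equal 11.

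Several of the largest changes were in genes outside these lists. Sprr1a, a small proline-rich protein of stressed epithelia, read 3.93 to 4.79 (median 4.35) in the wild-type arrays and 8.68 to 10.26 (median 9.78) in the knockout arrays. It rose by 5.33 ± 0.21 log2 units (40.2-fold, adjusted p 7.87e-16). Cyp2a22, a cytochrome of the Cyp2a family, read 4.69 to 6.09 (median 5.27) in the wild-type arrays and 10.46 to 10.93 (median 10.61) in the knockout arrays and rose by 5.28 ± 0.28 log2 units (38.8-fold, adjusted p 2.55e-13). Gprc5b, an orphan receptor of the G protein family, read 3.85 to 4.31 (median 4.06) in the wild-type arrays and 7.74 to 8.26 (median 8.05) in the knockout arrays. It rose by 3.96 ± 0.10 log2 units (15.5-fold, adjusted p 3.45e-20), and within each group its arrays lay close together. Elapor1, a protein of the endosomal and lysosomal system, (3.93 ± 0.14, adjusted p 8.07e-17), Gipc2 (3.71 ± 0.12, adjusted p 2.13e-17), Sytl5, a synaptotagmin-like protein of vesicle traffic (3.56 ± 0.14, adjusted p 7.87e-16), and Mtmr11 (3.22 ± 0.19, adjusted p 1.62e-12) rose from low signals. Lgals1, galectin 1, read 6.90 to 7.37 (median 7.09) in the wild-type arrays and 10.12 to 10.51 (median 10.39) in the knockout arrays and rose by 3.24 ± 0.09 log2 units (9.48-fold, adjusted p 2.5e-19). Aqp7, a glycerol channel, rose by 3.02 ± 0.19 log2 units (8.09-fold, adjusted p 6.48e-12), and the aldehyde dehydrogenase gene Aldh3b2 rose by 3.02 ± 0.16 log2 units (8.1-fold, adjusted p 1.58e-13). Averaged over all its probe sets Gipc2 rose by 1.90 and Aldh3b2 by 1.67.

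Among the genes that fell, Serpina4-ps1, a serpin pseudogene, read 9.77 to 11.76 (median 11.25) in the wild-type arrays and 2.98 to 4.86 (median 3.49) in the knockout arrays. It fell by 7.39 ± 0.35 log2 units (168-fold, adjusted p 1.86e-14). Adgrf1, an adhesion receptor of the G protein family, read 7.41 to 8.24 (median 8.06) in the wild-type arrays and 3.24 to 4.33 (median 3.56) in the knockout arrays and fell by 4.26 ± 0.18 log2 units (19.1-fold, adjusted p 2.14e-15). Pigr, which carries immunoglobulin A into bile, read 11.98 to 12.13 (median 12.08) in the wild-type arrays and 8.96 to 9.74 (median 9.38) in the knockout arrays and fell by 2.70 ± 0.13 log2 units (6.5-fold, adjusted p 1.75e-14). Its wild-type arrays spanned little, and all knockout arrays lay well below them. The sulfotransferase genes Sult5a1 (−3.66 ± 0.15, adjusted p 9.26e-16) and Sult2a8 (−2.77 ± 0.16, adjusted p 7.75e-13), the carboxylesterase gene Ces3b (−3.16 ± 0.20, adjusted p 3.94e-12) and the acetyltransferase gene Nat8 (−2.44 ± 0.12, adjusted p 8.66e-14) fell without overlap. Clec2h, a C-type lectin, fell by 3.09 ± 0.42 log2 units (8.54-fold, adjusted p 2.36e-06), and Obp2a, an odorant-binding protein, fell by 2.88 ± 0.29 log2 units (7.35-fold, adjusted p 1.79e-08). The forkhead factor gene Foxq1 fell by 2.30 ± 0.28 log2 units (4.92-fold, adjusted p 4.87e-07) and Scara5, a ferritin receptor, fell by 2.37 ± 0.45 log2 units (5.17-fold, adjusted p 0.000203). Carmil1 (−2.25 ± 0.23, adjusted p 2.39e-08) and Tedc2 (−2.40 ± 0.13, adjusted p 1.59e-13) were lower as well. Averaged over all probe sets of the gene, the change was −1.45 for Foxq1 and −1.36 for Carmil1.

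Genes next to Nr1h4 were looked at as a group of their own, since they travel with the targeted allele. Of the 30 nearest named genes, 15 on each side in RefSeq order, 13 were called against 27.5% of all genes, 6 higher and 7 lower, and 2 of these changed over 2-fold. Gas2l3, a linker of actin and microtubules, read 5.34 to 6.63 (median 6.01) in the wild-type arrays and 8.70 to 9.02 (median 8.77) in the knockout arrays and rose by 2.80 ± 0.19 log2 units (6.98-fold, adjusted p 1.31e-11). The other was Hal, given above. Igf1, given with the growth hormone genes, was also among the 13 called. Amdhd1, which acts later than Hal in histidine breakdown, fell by 0.98 ± 0.08 log2 units (1.98-fold, adjusted p 3.97e-10). Whether the position next to Nr1h4 bears on these changes was not tested.

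The genotype difference was measured again in the 12 arrays of mice given OCA, which share no array with the vehicle groups. The changes under OCA thus come from other mice, but all groups were fitted together. The calls under vehicle and under OCA share the estimate of each gene's spread and are not independent. With vehicle arrays left out in turn, 5675 to 6364 genes were called under OCA, the most without wild-type vehicle array 6. All wild-type OCA arrays carried code number 5 and all knockout OCA arrays number 9. Genotype and code number therefore cannot be told apart in this set. There 5780 genes (30.7%) were called, 3280 higher and 2500 lower. Of the 2903 genes higher under vehicle 2431 (83.7%) were called higher under OCA, of the 2271 lower ones 1508 (66.4%) were called lower, and 3 genes were called the opposite way. All 554 genes called over 2-fold under vehicle had the same direction under OCA, and 549 were called again. Cyp2b9 differed by 7.31 log2 units there, Cyp2b13 by 6.77, Elovl3 by −7.01, Hsd3b5 by −7.46 and Abcc4 by 3.70.

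No gene passed the test of the difference between the 2 genotype effects (limma, adjusted p below 0.05), with a smallest adjusted p of 0.0841. An unadjusted p below 0.05 was seen in 1140 genes, where about 941 would be expected by chance. Cyp8b1 held that smallest value: its genotype difference was 0.81 under vehicle and 1.96 under OCA. Slc51b differed by −1.11 and −2.00 (adjusted p of the difference 0.168), and Nr0b2 by −2.62 and −3.83 (0.495). Csad differed by 1.10 and 2.03 (0.273). In the other direction Ccnd1 differed by 1.62 under vehicle and 0.59 under OCA (0.295), Cd24a by 1.28 and 0.58 (0.135) and Cldn7 by 0.55 and 0.05 (0.199). The endothelial genes that fell under vehicle, such as Kdr (−0.36 and 0.04, 0.559), were not called under OCA, where 4 of the 12 endothelial markers were called higher and 0 lower and the list's median was 0.20 (−0.13 under vehicle). These gaps are therefore not shown to differ between treatments.

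**Figure D5:**
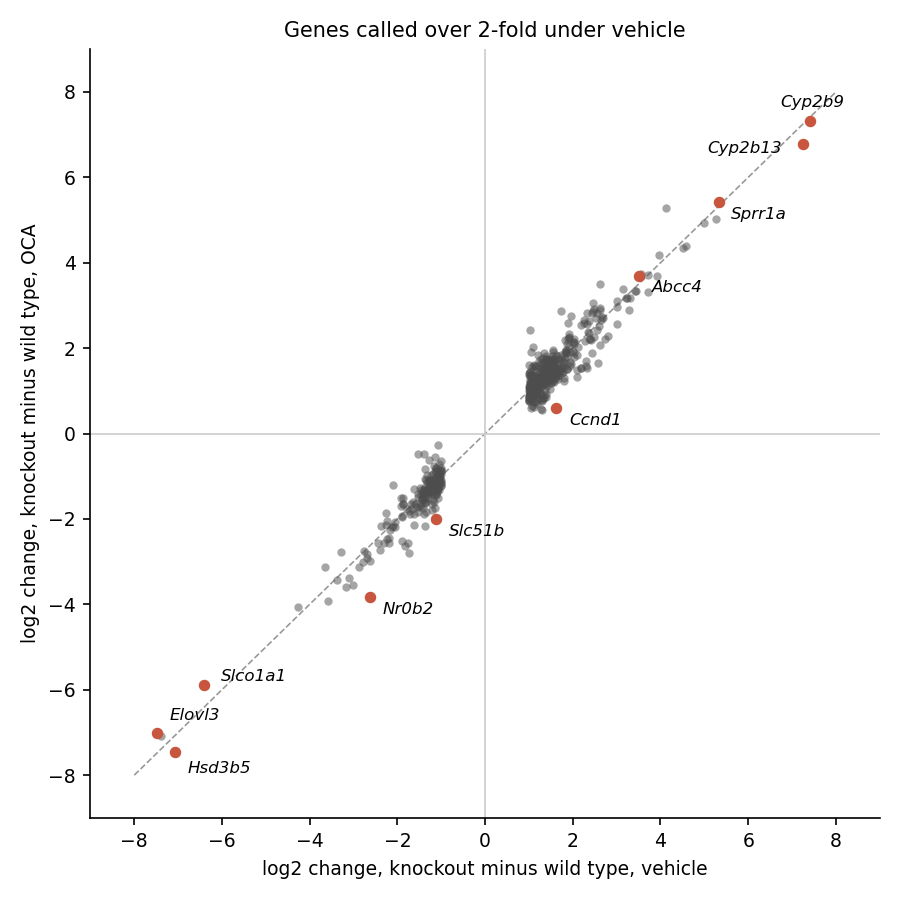
Log2 change, knockout minus wild type, under vehicle (horizontal axis) and under OCA (vertical axis) for the 554 genes called over 2-fold under vehicle, with the line of equal change and 10 genes named. All 554 points lie on the same side of 0 on both axes.

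The spread between mice was widest in a few genes. In the wild-type group the named genes with the largest SD were Lcn2, Saa2, Cdkn1a, Gadd45g and Cxcl1. Cxcl1, a neutrophil chemokine, read 5.47 to 10.33 (median 6.50) in the wild-type arrays and 6.39 to 6.97 (median 6.50) in the knockout arrays, and the top value was that of wild-type array 6. Gadd45g read 5.62 to 10.81 (median 8.04) in the wild-type arrays and 6.34 to 8.24 (median 7.22) in the knockout arrays and did not pass (−0.81 ± 0.60, adjusted p 0.343). In the knockout group the largest SD were those of Sult1e1, Bcl6, Acta2, Phlda1 and Myc. Phlda1, a pleckstrin-like protein, read 8.48 to 10.42 (median 10.08) in the wild-type arrays and 7.81 to 9.76 (median 8.13) in the knockout arrays and fell by 1.22 ± 0.32 log2 units (2.33-fold, adjusted p 0.00574) with overlapping arrays.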

How the data were processed

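Liver RNA of 24 mice was measured on whole-transcript arrays, and the 12 vehicle arrays are described here. The authors deposited RMA values on a log2 scale, per the submitters' processing notes, which give no version. The log base was taken from the range of the values (0.873 to 13.6). Of 35556 probe sets 21218 carried 1 gene symbol, 1881 several and 12457 none in the platform table. Symbols were updated by gene number, and the probe set with the highest mean over all arrays stood for each of 18820 genes. All 4 groups were fitted together in limma 3.58.1 (R 4.3.3), which gave 20 residual degrees of freedom and a prior of 4.46, and p-values were adjusted over all genes (Benjamini-Hochberg). Changes are log2 differences, knockout minus wild type, ± SE. The fit was tested on simulated data.

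Members and lists were chosen with earlier results of these data known. Named were 12 fixed genes, the 25 largest changes each way, up to 6 called and 3 uncalled members of each list, the neighbours of Nr1h4 and the 5 largest SDs per group. Sdc1, Akr1d1, Hsd17b4, Slco1a4, Abcb1a, Abcc2, Jak2, Cyp2c37, Cpt1a, Fabp1, Apoa4, Abcg1, Mbl2, Saa3, Itih3, Ccl24, Il6 and Nkd1 were added after their values were seen. Besides leaving out the 12 arrays in turn, 13 other settings of scaling, filtering, weighting, blocking and probe choice were tried, and 2 more were chosen after the data were seen (centring on the median gene, and the code number block without wild-type array 6). The genotype labels have no independent check here. Promoters are RefSeq sequences (GRCm38.p6).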

Additional observations from a re-analysis of the deposited data

Results flagged for a closer look

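For each gene named above, the highest and the lowest array of each group of 6 were set against the group's range, and an array was marked where its gap to the next array took up a larger share of that range than Dixon's critical value allows. Chance marks about 1 in 20 groups, or about 26 of the 528 groups looked at, and 47 were marked. Of these 22 were wild-type array 6, 11 other wild-type arrays and 14 knockout arrays. Values below are log2 array signals. Wild-type array 6 stood highest, apart from its group, for Sult1e1 (6.05), Pfkfb3 (8.01), Fga (12.14), Orm2 (10.66), Lcn2 (13.06), Saa2 (12.88), Il1r1 (11.69), Apcs (10.76), Saa3 (7.40), Itih3 (12.44), Cdkn1a (10.23), Xbp1 (11.06), Chac1 (7.96), Carmil1 (9.71) and Cxcl1 (10.33). It stood lowest for Abcg8 (9.57), Fgfr2 (6.90), Klb (7.57), Keg1 (8.86), Ghr (10.76), Mvd (4.15) and Foxa3 (8.23). Genes of the acute phase response (Orm2, Lcn2, Saa2, Saa3, Apcs and Itih3), the interleukin 1 receptor gene Il1r1 and the neutrophil chemokine gene Cxcl1 were among the former, and the male-biased gene Keg1, the growth hormone receptor gene Ghr and the co-receptor gene Klb among the latter.

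Other wild-type arrays stood highest for Cyp8b1 (11.51), Moxd1 (6.33), Cux2 (4.87), Cps1 (12.92), Ttr (13.07), Ccl24 (5.40) and Nkd1 (6.99), and lowest for Sdc1 (9.40), Serpina12 (6.68), Alas1 (10.92) and Apoa1 (13.16). Knockout arrays stood highest for Itgax (6.17), Cd68 (9.44) and Pcna (8.42), and lowest for Apoa5 (10.15), Slc22a7 (4.04), Abcg5 (9.56), Cyp2b10 (9.74), Alas1 (12.04), Fitm1 (10.98), C9 (9.00), C1qb (9.58), Kdr (7.84), Cxcl10 (6.71) and Scara5 (3.50).

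Outside the 18820 genes, 16736 probe sets with no single gene name or with a brighter probe set for the same gene were tested together with the rest. Of these 1896 were called, which is 11.3%, with 896 higher and 1000 lower in knockout liver, and 162 differed over 2-fold. They were marked because they lie outside the genes compared, and they are not named here.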

How the results depend on the processing

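Of the 264 genes named, 205 kept their direction and their side of the adjusted p threshold of 0.05 under every alternative run, and 59 did not under at least 1. Apart from centring on the median gene, the settings that kept these genes called between 4281 (code number as a block) and 5725 (array weights), against 5174 in the main fit. The count was 4407 with only the genes at or above the median gene and 6562 over all probe sets. Centring on the array median gave 2647 higher and 2647 lower, and quantile normalization 2526 higher and 2863 lower. Centring on the median gene, chosen after the data were seen, gave 10130 called genes, 1776 higher and 8354 lower, and 11099 under OCA. It shifts all changes down by construction and turned Hsd17b4 to −0.01, Txnrd1 to −0.05, Glud1 to −0.09, Cftr to −0.02 and Pcna to −0.10. Leaving out 1 array at a time gave 4684 to 5451 called genes. The test of the difference between OCA and vehicle called 2 genes with array weights and 0 to 3 with 1 array left out (3 without wild-type arrays 2 or 6, 1 without wild-type array 4). Bcl6 lay between −0.66 and 0.08, Myc between −0.09 and 0.61 and Cxcl1 between −0.61 and 0.36 with 1 array left out, the turns being those without wild-type array 5 for Bcl6 and Myc and without wild-type array 6 for Cxcl1. Myc was −0.05 and Cxcl1 0.66 with the code number as a block, in number 7 alone and with that block without wild-type array 6, and Cxcl1 was 0.23 with array weights. All settings that rest on the code number give the same change by construction. None of these 3 genes was called in any of those fits, and the cause of their turns was not tested. The replicate block, with the labels' number as a term, gave 5060 called genes, 2865 of them higher and 2195 lower, and among the named genes Dusp6 lost its call and Adgre1 gained one. The numbers do not pair the arrays: same-numbered arrays correlated at −0.035 to 0.062 in their deviations from the group means, and no array matched its own number best. With 6 arrays a group the number of arrays limits the precision, and detection above background was not assessed, so the size of a change that starts or ends near the low end of the scale is uncertain.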

Other observations

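Olfactory receptor genes were looked at after their values were seen, as a group that liver is not known to express. The 990 measured Olfr genes had a median log2 signal of 2.43, against 5.28 over all genes. Of these 2 were called higher and 51 lower in knockout liver, with a median log2 change of −0.08. With quantile normalization 7 were higher and 12 lower (median −0.03), and with the median gene set equal 0 were higher and 530 lower (median −0.25). Among all 7687 genes with a mean signal below 20, 278 were higher and 364 lower, while among the 11133 at or above it 2625 were higher and 1907 lower.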
